A study of Fragaria vesca with 9 samples.

Results

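The proton pumps of the vacuole and of the plasma membrane were followed in strawberry fruit at the level of gene expression. Members were all genes whose listed description holds "V-type proton ATPase", "vacuolar proton", "vacuolar membrane proton pump" or "plasma membrane ATPase", or the Pfam domain PF00122 of P-type ATPases, and 68 of 34777 listed genes met this rule. Of these, 26 were vacuolar pump genes and 42 were P-type ATPase genes. The domain is shared by P-type ATPases that carry other ions: among the 42 were 14 of the plasma membrane proton pump type, 14 calcium ATPases, 8 heavy metal ATPases, 4 phospholipid flippases, 1 manganese-type and 1 magnesium-type gene. The name proton pump therefore applied to the 26 vacuolar genes and the 14 genes of the plasma membrane type, and the other P-type groups are given apart.

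Plant vacuoles are acidified by a pair of pumps. The V-ATPase is a rotary complex whose V1 sector hydrolyses ATP in the cytosol and turns a ring of proteolipid subunits in the membrane sector Vo, while the V-PPase is a single protein driven by pyrophosphate. The plasma membrane H+-ATPases are P-type pumps that acidify the cell wall and energise uptake. In ripening fruit the vacuolar gradient drives storage of sugars and organic acids, and MATE transporters of the vacuolar membrane exchange their substrates against protons.

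The study compared poly(A) RNA of whole fruit of the woodland strawberry Fragaria vesca, collected 26 days after anthesis, in wild type and in mutants of FvMATE51, which the submitters call a protein of the vacuolar membrane. Each of 3 groups had 3 libraries: wild type, the Fvmate51-1 mutant (line 1, titled crfvmate51_1) and the Fvmate51-2 mutant (line 2, titled crfvmate51_2). The labels do not spell out the prefix cr, the lesion in either line, or whether a library came from a separate plant, so the p-values rest on the spread among these libraries alone, which may be technical. No listed description names FvMATE51, so the targeted gene was not used as a check of the labels.

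Libraries held 31587667 to 51649115 fragments in listed genes, and 15054 to 15328 genes reached 1 FPKM (fragments per length of gene and per depth of library). Wild type replicate 3 stood apart. Its tested genes under 1000 bases deviated from their group means by a median of 0.13 on the log2 scale and those of at least 3000 bases by -0.16, and the median gene length was 1913 bases for tested vacuolar members and 4442 for tested P-type members. Its P-type members deviated by a median of -0.23 and its vacuolar members by 0.02, and line 1 replicate 2 deviated the same way, by 0.10 for short genes and -0.10 for P-type members. Some results that rest on these libraries are given with and without them, and the rest with all libraries or as a range over other settings. Ripening fruit flesh was present in every library: leucoanthocyanidin dioxygenase ranged from 643 to 1517 FPKM and the furanone-forming 2-methylene-furan-3-one reductase from 5113 to 7803 FPKM.

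Most marker lists moved with genotype. Over all tested genes, 16.8% were called higher and 18.1% lower in both lines together, and 15.4% and 12.2% between the lines. The shares were 16.5% and 19% in line 1 and 15.3% and 15.1% in line 2. In both lines together against wild type, markers of fruit flesh near ripeness were called higher for 0 and lower for 15 of 20 tested genes, most of them in the family of the major strawberry allergen, and their summed level was 8810 to 10910 FPKM in wild type, with 6793 to 7132 in line 1 and 7459 to 7867 in line 2. The lines differed in this list. Line 1 had 0 called higher and 18 lower (median log2 change -2.02), and line 2 had 5 higher and 4 lower (median 0.01). Line 2 against line 1 had 16 higher and 2 lower (median 2.49). Achene (seed) markers were called higher for 5 and lower for 31 of 59, with summed levels of 3361 to 3775, 2440 to 3069 and 2774 to 2802 FPKM, a list that also caught NDR1/HIN1-like genes. Line 2 against line 1 had 14 higher and 22 lower of these. Vascular markers were called higher for 3 and lower for 1 of 4, with sums of 24.1 to 29.3, 48.1 to 51.9 and 34.7 to 36.2 FPKM, and line 2 against line 1 had 1 higher and 3 lower. Of these, FvH4_5g06680 (means of 0.397, 1.215 and 0.451 FPKM) reached the 1 FPKM needed for testing only in line 1. Its call as higher is thus in part set by that limit. Pollen patterns, which mostly caught expansins, were called higher for 1 and lower for 8 of 10 (2625 to 2903, 2061 to 2298 and 2299 to 2352 FPKM), and green tissue markers for 0 of 7 (64.8 to 78.7, 80.8 to 91.8 and 68.3 to 74.1 FPKM). Listed genes at 0 in all libraries were 13 of 106 for achenes, 5 of 18 for vascular tissue, 19 of 49 for pollen, 2 of 27 for fruit flesh and 7 of 34 for green tissue. The part of these tissues in the pump results was not tested, and in RNA of whole fruit fewer cells of a type and less RNA per cell cannot be told apart.

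The vacuolar pump genes were led in level by the proteolipid ring. Of the 26 genes, 22 reached 1 FPKM in 3 or more of the 9 libraries and were tested, and each subunit of the complex had at least 1 tested gene. Of the 4 others, the highest value in any library was 0.519 FPKM, and 1 copy of subunit G had 0 fragments in all 9 libraries, which allows a level of up to 0.0906 FPKM. Subunits A, B, C, D, F and d were each encoded by 1 listed gene, and for E, G and H 1 copy held at least 99.1% of the subunit's summed FPKM in every library. Against wild type, both lines together had 2 vacuolar genes higher and 6 lower of 22, or 36.4%, where 34.9% of all 15890 tested genes were called. Line 1 had 2 higher and 7 lower (40.9%, against 35.5% of all genes), line 2 had 1 higher and 3 lower (18.2%, against 30.4%), and line 2 against line 1 had 4 higher and 2 lower (27.3%, against 27.6%). These shares lay near those of all genes, and in line 2 below them. Without wild type replicate 3 the count in both lines was 1 higher and 4 lower. Without both that library and line 1 replicate 2, line 2 had 4 higher and 2 lower, the reverse balance. With libraries rescaled to the same FPKM sum, the split in line 1 became 4 higher and 5 lower, while over all genes the share of calls that were higher went from 46.4% to 61.8%.

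The membrane ring was lower in the mutants. The 16 kDa proteolipid, subunit c, which carries the protons through the membrane, had 3 expressed genes, and the related subunit c'' had 1. FvH4_2g27050 (chromosome 2, 21584161 to 21586434, plus strand) had 249.7, 265 and 337 FPKM in the wild type libraries, 193, 191 and 189 in line 1 and 202, 207 and 185 in line 2. All 6 mutant libraries lay below the lowest wild type library, and wild type replicate 3 was the highest. It fell 1.49-fold in line 1 (log2 change -0.56 ± 0.10 SE, limma adjusted p = 0.00239) and 1.43-fold in line 2 (-0.51 ± 0.10, adjusted p = 0.00447), and both calls held in all 17 alternatives.

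FvH4_1g12060, on chromosome 1 (6593197 to 6594839), had 247, 264 and 342 FPKM in wild type, 203, 218 and 211 in line 1 and 231, 244 and 226 in line 2. FvH4_2g39101, on chromosome 2 (28164984 to 28166713), had 203, 206 and 264 FPKM in wild type, 179, 182 and 171 in line 1 and 195, 185 and 176 in line 2. For both genes no mutant library reached the lowest wild type value, and replicate 3 was again the highest wild type library. Both fell in line 1, by 0.42 ± 0.11 (adjusted p = 0.0145) and by 0.33 ± 0.10 (adjusted p = 0.0281) on the log2 scale. In line 2 their log2 changes were -0.27 (adjusted p = 0.0897) and -0.26 (adjusted p = 0.0682). Subunit c'' (FvH4_2g29800) had 107, 103 and 133 FPKM in wild type, 89.5, 89.4 and 90.7 in line 1 and 88.1, 97.0 and 91.0 in line 2, with no overlap between mutants and wild type. It fell in both lines, by 0.34 ± 0.09 (adjusted p = 0.0178) and by 0.30 ± 0.09 (adjusted p = 0.0306).

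Without wild type replicate 3, these 4 genes were still called lower in both lines together, with log2 changes of -0.20 for FvH4_1g12060, -0.40 for FvH4_2g27050, -0.17 for FvH4_2g39101 and -0.21 for FvH4_2g29800, in place of -0.34, -0.53, -0.29 and -0.32. Without line 2 replicate 3 the call of FvH4_2g39101 in both lines was lost (adjusted p = 0.053). Leaving out line 1 replicate 1 took the line 1 adjusted p to 0.0522 for FvH4_1g12060, 0.0689 for FvH4_2g39101 and 0.0523 for FvH4_2g29800, leaving out line 1 replicate 3 took it to 0.0846 for FvH4_2g39101, and leaving out line 2 replicate 1 or 3 took the line 2 value to 0.105 or 0.089 for FvH4_2g29800. The c copies have the same Swiss-Prot match, and how reads shared between copies were counted is not given in the sources used here, so the split among copies is uncertain. Their summed level was 792 ± 131 FPKM (SD, n = 3) in wild type, with 579 ± 10.3 in line 1 and 617 ± 25.4 in line 2. The share of FvH4_2g27050 in that sum was 35.8 ± 0.166% in wild type, with 33.0 ± 0.622% in line 1 and 32.1 ± 0.503% in line 2.

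Other Vo subunits did not move as one. Subunit e, a small membrane protein of the complex, had 2 genes matched to e1. FvH4_3g01010 had 67.5, 69.8 and 82.4 FPKM in wild type, 55.2, 67.2 and 51.3 in line 1 and 61.9, 57.7 and 42.5 in line 2. All 6 mutant libraries lay below wild type, line 1 replicate 2 by the least. It fell in both lines together by 0.39 ± 0.13 (adjusted p = 0.0348) and in line 2 by 0.44 ± 0.15 (adjusted p = 0.0411). These calls were lost without wild type replicate 3 (adjusted p = 0.136 and 0.121) and, among other libraries, without line 2 replicate 3 for line 2 (0.147) and without wild type replicate 2, line 1 replicate 1 or line 1 replicate 3 for both lines (0.0621 to 0.0677). The second e gene, FvH4_3g23660, was not called, with a mean of 47.7 FPKM in wild type, with 44.6 in line 1 and 43.8 in line 2.

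Subunit a anchors the static part of the complex, and its isoforms set the membrane in Arabidopsis, a1 at the trans-Golgi network and a3 at the tonoplast. The main a3 gene, FvH4_2g09950, held 64.3 to 72.8% of the summed level of a genes. Its libraries gave 78.8, 77.5 and 60.6 FPKM in wild type, 77.6, 65.8 and 76.8 in line 1 and 83.9, 84.6 and 84.9 in line 2, and it was not called in any contrast. Line 2 lay above every wild type library, with a log2 change of 0.23 ± 0.10 (adjusted p = 0.118). The full-length a1 gene, FvH4_3g33720, had 18.4, 18.1 and 14.1 FPKM in wild type, 21.5, 21.0 and 22.5 in line 1 and 18.0, 18.6 and 18.4 in line 2. Line 1 lay above wild type and line 2 within its range or just over it.

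FvH4_3g33720 rose in line 1 by 0.35 ± 0.10 (adjusted p = 0.0175), a call lost without line 1 replicate 3 (0.0583). In both lines together it was called higher at 0.24 (adjusted p = 0.0471). That call was lost in 10 of 17 alternatives, among them those without wild type replicate 3 (0.132) or without any 1 of the 6 mutant libraries (0.05 to 0.0863). The second a3 gene, FvH4_2g38960, had group means of 10.5, 11.1 and 11.8 FPKM and was not called. FvH4_4g13651 is a 252-base gene matched to a1 with 22 to 50 fragments per library, and it was not called. Subunit d (FvH4_6g49160), which joins the ring to the V1 rotor, stayed between 88.2 and 102 FPKM in all libraries and was not called.

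**Figure D1:**
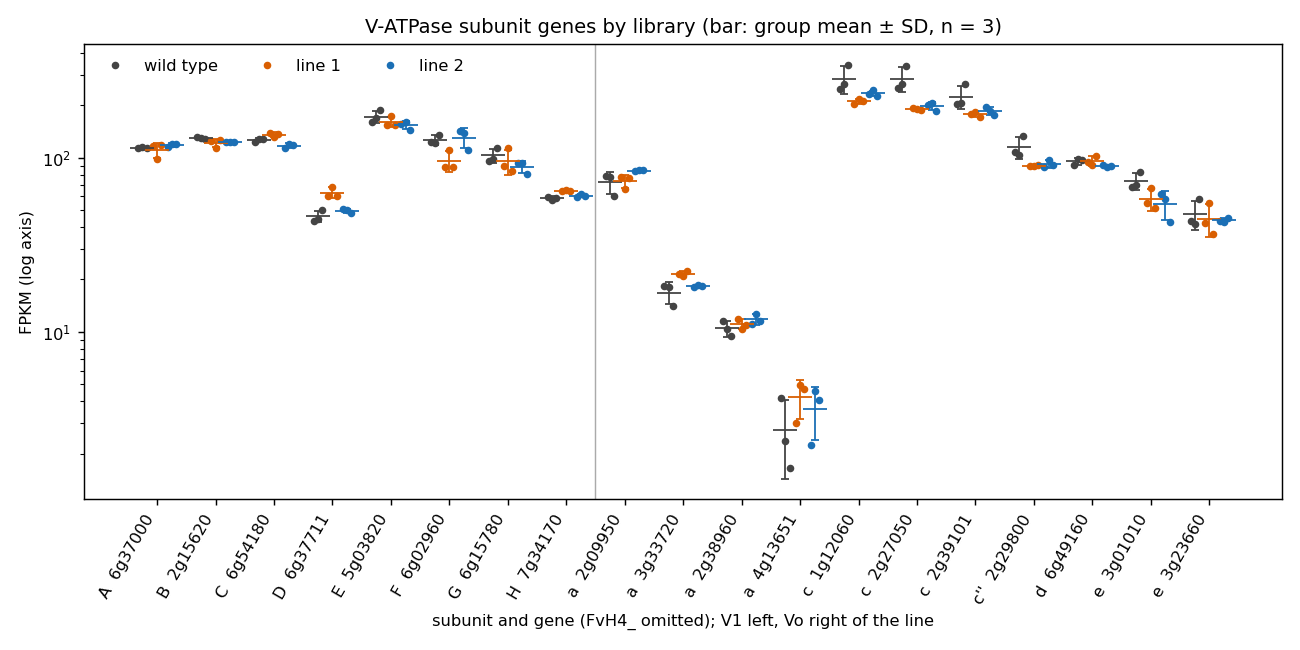
FPKM of the tested V-ATPase subunit genes in each library on a log axis, with dots for libraries and bars for group means ± SD (n = 3), V1 subunits left of the line and Vo subunits right of it. The 3 c genes and c'' lie lower in both lines than in wild type, where the highest dot is replicate 3 (342 FPKM for FvH4_1g12060), while subunits A, B and d keep close to their wild type level.

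In the cytosolic V1 sector most subunits were not called against wild type. Catalytic subunit A (FvH4_6g37000) had 113, 115 and 113 FPKM in wild type, 117, 97.9 and 118 in line 1 and 115, 119.8 and 120.2 in line 2, and the non-catalytic nucleotide-binding subunit B2 (FvH4_2g15620) had group means of 129.9 ± 2.03, 122 ± 6.80 and 123 ± 0.135 FPKM. Neither was called in any contrast. The peripheral stalk subunits E (FvH4_5g03820; 172 ± 14.2, 161 ± 11.5 and 154 ± 8.41 FPKM) and G (FvH4_6g15780; 103 ± 9.90, 95.5 ± 15.6 and 88.9 ± 7.15 FPKM) were not called, nor was the regulatory subunit H (FvH4_7g34170; 58.8 ± 1.12, 64.3 ± 0.453 and 60.5 ± 1.05 FPKM). Against wild type, the log2 changes of these 5 genes lay no further than 0.21 from 0. The 8 tested V1 genes had 1 called higher and 0 lower in both lines together, and the 11 Vo genes had 1 higher and 5 lower, where 16.8% of all tested genes were called higher and 18.1% lower. The difference between the sectors was not tested.

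The central stalk subunits D and F, which form the rotor inside V1, were called in opposite directions in line 1. Subunit D (FvH4_6g37711; chromosome 6, 29715680 to 29718071) had 43.4, 44.8 and 49.9 FPKM in wild type, 60.4, 68.3 and 60.4 in line 1 and 51.0, 50.01 and 48.3 in line 2. All line 1 libraries lay above all others. It rose in line 1 by 0.45 ± 0.08 (1.37-fold, adjusted p = 0.00162) and was lower in line 2 than in line 1 by 0.33 ± 0.08 (adjusted p = 0.00879), and both calls held in all 17 alternatives. Subunit F (FvH4_6g02960) had 122.5, 122.3 and 136 FPKM in wild type, 88.5, 111 and 89.0 in line 1 and 142, 138 and 110.5 in line 2. Line 1 lay below wild type, with replicate 2 nearest to it, and line 2 replicate 3 lay below line 1 replicate 2.

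Subunit F fell in line 1 by 0.40 ± 0.12 (adjusted p = 0.023) and was higher in line 2 than in line 1 by 0.43 ± 0.12 (adjusted p = 0.0184). The fall was lost without wild type replicate 3 (0.0629), line 1 replicate 1 (0.0841) or line 1 replicate 3 (0.0807), and when rescaled to the same FPKM sum (0.058). The difference between the lines was lost without line 1 replicate 1 or 3 or line 2 replicate 1 or 2 (0.0693 to 0.0804), and with voom (0.0552). Subunit C (FvH4_6g54180), which links the stalks and controls assembly, had 124, 128.6 and 128.8 FPKM in wild type, 139, 131 and 138 in line 1 and 113, 120.2 and 118 in line 2. Line 2 lay below both other groups, and it was lower in line 2 than in line 1 by 0.21 ± 0.06 (adjusted p = 0.0288), which was lost without line 1 replicate 1 or 3 or any line 2 library (0.0677 to 0.125). Neither line differed from wild type by the test.

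Summed over all listed members of a sector, V1 genes gave 878 ± 34.5 FPKM in wild type, with 849 ± 22.8 in line 1 and 842 ± 32.2 in line 2. Vo genes gave 1225 ± 151, 978 ± 15.5 and 1015 ± 34.9 FPKM. Wild type replicate 3 had 1398 FPKM of Vo genes, and the other wild type libraries had 1121 and 1156, still above the highest mutant library at 1042. The sums are weighted by the c genes and were not tested.

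**Figure D2:**
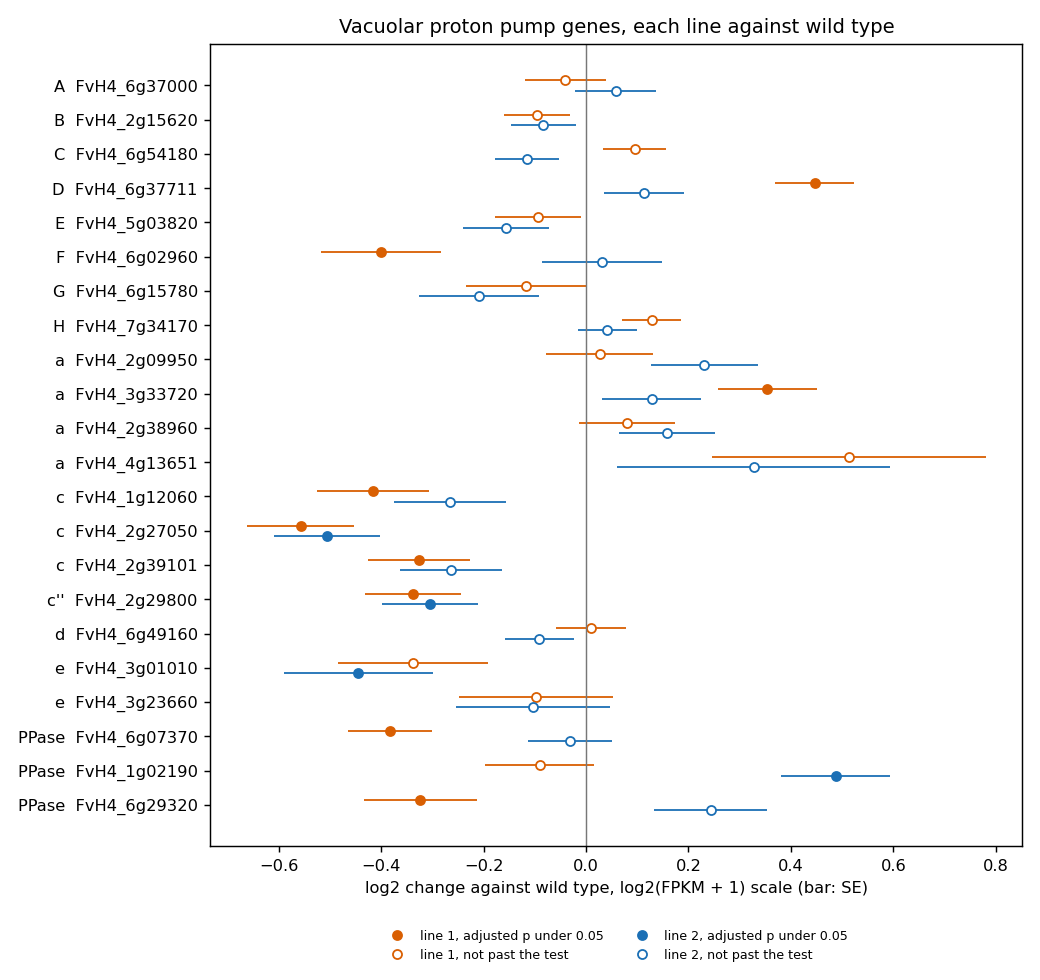
Log2 change of each tested vacuolar pump gene in line 1 and line 2 against wild type, with the standard error as a bar, filled dots for adjusted p under 0.05 and open dots otherwise. Subunit c gene FvH4_2g27050 lies at -0.56 and -0.51, subunit D reaches 0.45 in line 1, and the V-PPase genes differ between the lines.

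The V-PPase genes separated the lines. The enzyme couples breakdown of pyrophosphate to proton transport into the vacuole and had 3 genes, all tested. FvH4_6g07370 (chromosome 6, 4423701 to 4428446, minus strand) had 111, 114 and 110.0 FPKM in wild type, 88.0, 75.8 and 93.5 in line 1 and 106, 107 and 115 in line 2. Line 1 lay below all other libraries. It fell 1.30-fold in line 1 (-0.38 ± 0.08, adjusted p = 0.00541) and its log2 change in line 2 was -0.03 (adjusted p = 0.789).

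FvH4_1g02190 (chromosome 1, 1171413 to 1176295, minus strand) had 63.3, 68.6 and 62.8 FPKM in wild type, 63.5, 50.5 and 70.3 in line 1 and 89.5, 91.6 and 93.0 in line 2. All line 2 libraries lay above all others, and line 1 overlapped wild type. It rose 1.41-fold in line 2 (0.49 ± 0.11, adjusted p = 0.00613), with a log2 change of -0.09 in line 1 (adjusted p = 0.534). The third gene, FvH4_6g29320 (chromosome 6, 22610864 to 22616069), was much lower in level, with 8.91, 8.501 and 8.06 FPKM in wild type, 6.90, 5.35 and 7.68 in line 1 and 10.1, 10.3 and 10.3 in line 2. The groups did not overlap, line 1 being the lowest and line 2 the highest.

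FvH4_6g29320 fell in line 1 by 0.32 ± 0.11 (adjusted p = 0.0433), a call lost in 10 of 17 alternatives, with an adjusted p of 0.164 when rescaled to the same FPKM sum. It was 0.1 without line 1 replicate 2, 0.0721 without line 1 replicate 1, 0.0864 without wild type replicate 2, 0.106 without wild type replicate 1 and 0.0611 to 0.0636 without any 1 line 2 library. All 3 genes were higher in line 2 than in line 1, where 15.4% of all tested genes were called higher. The log2 differences were 0.35 ± 0.08 for FvH4_6g07370 (adjusted p = 0.00903), 0.58 ± 0.11 for FvH4_1g02190 (adjusted p = 0.00221) and 0.57 ± 0.11 for FvH4_6g29320 (adjusted p = 0.00318), and these calls held in all 17 alternatives. The call of FvH4_6g07370 as lower in both lines together (-0.21, adjusted p = 0.0446) was lost in 10 of 17, among them without any 1 wild type library (0.0665 to 0.122), line 1 replicate 1 (0.0653) or any 1 line 2 library (0.0557 to 0.0905). Rescaling to the same FPKM sum gave the highest value (0.168).

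The summed V-PPase level was 185 ± 5.40 FPKM in wild type, with 154 ± 20.3 in line 1 and 211 ± 6.20 in line 2. Within this sum the balance of the 2 main genes moved: FvH4_1g02190 made up 35.1 ± 0.718% in wild type, with 39.8 ± 1.34% in line 1 and 43.3 ± 0.620% in line 2. FvH4_6g07370 made up 60.3 ± 0.607%, 55.9 ± 1.56% and 51.8 ± 0.726%. These shares come from ratios within a library, do not depend on its scaling, and were not tested.

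**Figure D3:**
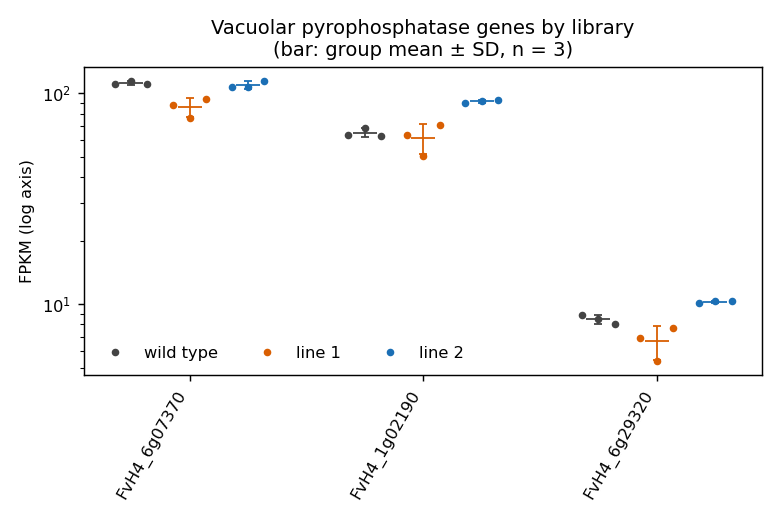
FPKM of the 3 V-PPase genes in each library on a log axis, with dots for libraries and bars for group means ± SD (n = 3). Line 2 lies above line 1 for every gene, and FvH4_1g02190 in line 2 (89.5 to 93.0 FPKM) lies above all wild type libraries (62.8 to 68.6 FPKM).

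Among P-type ATPases, 27 of 42 genes were tested. The others had at most 1.41 FPKM in any library, and 2 of them had 0 fragments in all libraries, which allows levels of up to 0.191 and 0.0298 FPKM. In both lines together 7 genes were called higher and 1 lower (29.6%, against 34.9% of all genes), and in line 1 again 7 higher and 1 lower (29.6%, against 35.5%). Line 2 had 8 higher and 4 lower (44.4%, against 30.4%), and line 2 against line 1 had 5 higher and 6 lower (40.7%, against 27.6%). The median log2 change over the 27 genes was 0.20 in both lines, 0.21 in line 1 and 0.15 in line 2, beside medians of 0.00, -0.01 and 0.02 over all tested genes. Without wild type replicate 3, low for these long genes, the medians of the 27 genes were 0.08, 0.11 and 0.09, and both lines together had 5 called higher and 3 lower. Rescaled to the same FPKM sum, the calls became 8 higher and 1 lower in both lines, 9 and 1 in line 1, and 4 and 7 between the lines.

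Most tested plasma membrane proton pump genes rose in line 2. Of 14 listed genes 6 were tested, and the 8 others had means of at most 0.644 FPKM. Line 2 had 4 called higher and 1 lower, line 1 had 3 higher and 0 lower, and line 2 against line 1 had 2 higher and 1 lower. Over all tested genes, 15.3% were called higher and 15.1% lower in line 2, 16.5% and 19% in line 1, and 15.4% and 12.2% between the lines. The main gene, FvH4_2g36880 (chromosome 2, 26920201 to 26934084, minus strand), is matched to Plasma membrane ATPase 4. It had 150.4, 156 and 101 FPKM in wild type, 136, 112 and 136 in line 1 and 197, 203 and 216 in line 2. All line 2 libraries lay above all others, and wild type replicate 3 was the lowest library of all.

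FvH4_2g36880 rose 1.51-fold in line 2 (0.62 ± 0.15, adjusted p = 0.0103) and was 1.604-fold higher in line 2 than in line 1 (0.68 ± 0.15, adjusted p = 0.00612). A further gene matched to Plasma membrane ATPase 4, FvH4_4g07810, had 28.4, 29.4 and 23.6 FPKM in wild type, 26.8, 22.1 and 26.0 in line 1 and 39.4, 38.1 and 40.5 in line 2. Its pattern was alike: line 2 lay above all others and line 1 overlapped wild type. It rose 1.45-fold in line 2 (0.53 ± 0.10, adjusted p = 0.0027) and was 1.58-fold higher in line 2 than in line 1 (0.64 ± 0.10, adjusted p = 0.000751). All 4 of these calls held in all 17 alternatives. Over these, the log2 changes in line 2 ranged from 0.42 to 0.73 for FvH4_2g36880 and from 0.43 to 0.58 for FvH4_4g07810. In line 1 the log2 changes were -0.06 (adjusted p = 0.772) and -0.12 (adjusted p = 0.388).

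ATPase 11 (FvH4_5g15700) was the second most abundant pump of this type, with 106, 107 and 80.4 FPKM in wild type, 127, 109.8 and 129 in line 1 and 131, 135 and 142 in line 2. All mutant libraries lay above wild type, line 1 replicate 2 by the least. It rose in line 2 by 0.48 ± 0.11 (adjusted p = 0.00826) in all 17 alternatives. Its rise in line 1 (0.33 ± 0.11, adjusted p = 0.0431) was lost in 8 of 17, among them without wild type replicate 3 (log2 change 0.19, adjusted p = 0.0899), line 1 replicate 1 (0.122), line 1 replicate 3 (0.129) or any 1 line 2 library (0.0578 to 0.0637). The low-level Plasma membrane ATPase 1 (FvH4_6g49360) had 2.91, 3.48 and 2.29 FPKM in wild type, 4.79, 4.54 and 6.05 in line 1 and 6.01, 5.78 and 6.33 in line 2. It lay above wild type in all 6 mutant libraries and rose 1.77-fold in line 1 (adjusted p = 0.00351) and 2.09-fold in line 2 (adjusted p = 0.000655), calls that held in each of the 16 alternatives that tested it.

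ATPase 10 (FvH4_6g36240) belongs to the type that in petunia (PH5) and in the Arabidopsis seed coat (AHA10) acts on vacuolar pH or content. It lies on chromosome 6 (28477086 to 28485286, minus strand), and the listed gene FvH4_6g36241, with 0 fragments in all libraries, lies within it on the same strand, so how reads were divided between them is uncertain. FvH4_6g36240 had 13.3, 12.95 and 18.7 FPKM in wild type, 14.7, 15.1 and 15.1 in line 1 and 10.8, 10.8 and 10.985 in line 2. Line 2 lay below all other libraries, and wild type replicate 3 was the highest library of all. It fell in line 2 to 0.724-fold of wild type (-0.41 ± 0.12, adjusted p = 0.0231) and was lower in line 2 than in line 1 by 0.43 ± 0.12 (adjusted p = 0.0201). Leaving out any 1 line 2 library ended both calls (0.0601 to 0.0651 and 0.0516 to 0.0614), and so did leaving out line 1 replicate 3 for the second (0.0562). Over the 17 alternatives the log2 change in line 2 ranged from -0.503 to -0.255.

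The petunia partner of PH5 is PH1, a magnesium-type P-ATPase of the vacuole. The 1 listed gene of that type, FvH4_1g20140, outside the rule for named genes and chosen after its values were seen, had 11.2, 10.4 and 5.22 FPKM in wild type, 11.7, 10.4 and 10.9 in line 1 and 10.8, 9.91 and 10.2 in line 2. Only wild type replicate 3 lay apart from the other libraries. The gene was not called in any contrast (adjusted p = 0.222 in both lines together). ATPase 8 (FvH4_1g01450), a pump gene near the filter, had 1.01, 0.875 and 1.05 FPKM in wild type, 1.40, 1.41 and 1.47 in line 1 and 1.15, 1.23 and 1.21 in line 2. It was called higher in line 1 (0.30 ± 0.09, adjusted p = 0.0333), which was lost without any 1 of the line 1 libraries (0.0578 to 0.088) or without wild type replicate 1 (0.0572) or 2 (0.0919).

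The summed level of plasma membrane pump genes was 281 ± 45.7 FPKM in wild type, with 299 ± 26.7 in line 1 and 401 ± 15.97 in line 2. The wild type libraries had 303, 311 and 228 FPKM, and the lowest line 2 library had 387. Within the sum, ATPase 11 made up 34.9 ± 0.481% in wild type, with 40.9 ± 0.200% in line 1 and 33.9 ± 0.171% in line 2. FvH4_2g36880 made up 48.0 ± 3.28%, 42.8 ± 0.789% and 51.2 ± 0.424%. Wild type replicate 3 had the lowest wild type share of FvH4_2g36880, at 44.3%, and the mean of the other wild type libraries was 49.9%. The share of ATPase 11 was higher in each line 1 library (40.6 to 41.0%) than in any other library, while the share of FvH4_4g07810 was 9.73 ± 0.528% in wild type and 9.82 ± 0.303% in line 2. The sums and shares were not tested.

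**Figure D4:**
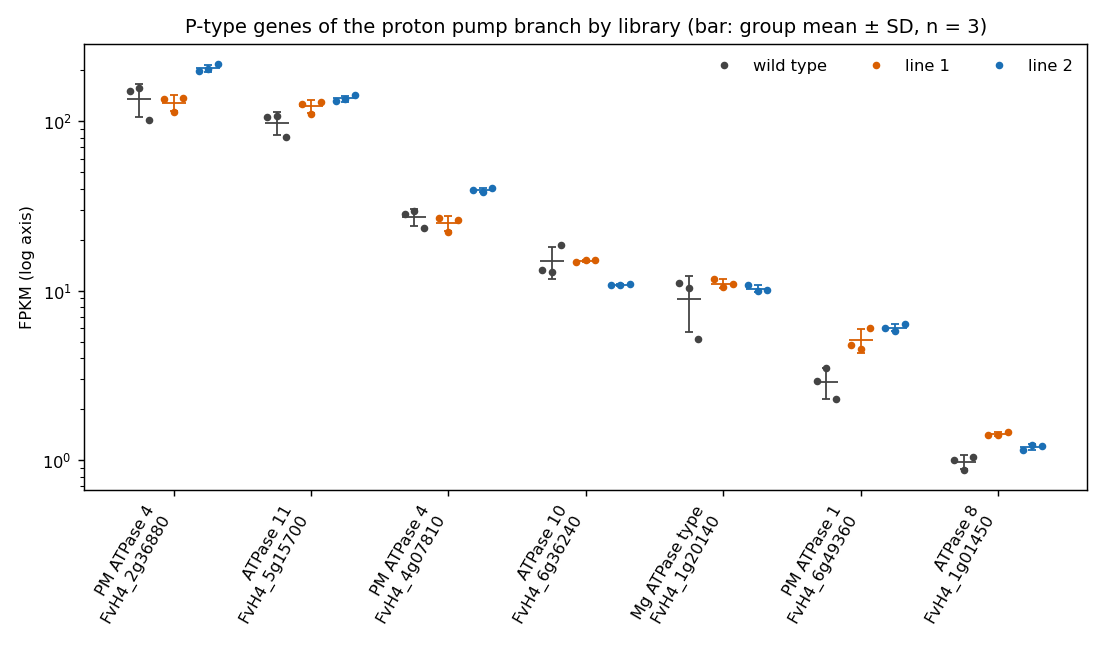
FPKM of the tested plasma membrane proton pump genes and the magnesium-type gene in each library on a log axis, with dots for libraries and bars for group means ± SD (n = 3). The main gene FvH4_2g36880 has 197 to 216 FPKM in line 2 against 101 to 156 in wild type, and ATPase 10 (10.8 to 10.985 FPKM in line 2) goes the other way.

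Calcium ATPases, which remove calcium from the cytosol, divided by gene. Of 14 listed genes 8 were tested, and line 2 had 1 called higher and 3 lower, line 1 had 0 higher and 1 lower, and line 2 against line 1 had 1 higher and 3 lower. These are 50% of the genes in line 2, 12.5% in line 1 and 50% between the lines, where 30.4%, 35.5% and 27.6% of all tested genes were called. FvH4_1g17620, matched to Calcium-transporting ATPase 2, had 170, 174 and 115 FPKM in wild type, 189, 169 and 189.5 in line 1 and 102, 102 and 109.9 in line 2. Line 2 lay below all others, with wild type replicate 3 the nearest to it. It fell in line 2 to 0.683-fold of wild type (-0.52 ± 0.14, adjusted p = 0.0157) and to 0.573-fold of line 1 (-0.80 ± 0.14, adjusted p = 0.0015). The difference between the lines held in all 17 alternatives, and the fall was lost without wild type replicate 1 (0.0537) or 2 (0.0572) or line 2 replicate 1 (0.0522) or 2 (0.0516).

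Calcium-transporting ATPase 12 (FvH4_2g22900) had 30.1, 29.96 and 23.4 FPKM in wild type, 34.0, 29.0 and 35.5 in line 1 and 17.4, 18.1 and 18.5 in line 2, which lay below all others. It fell to 0.647-fold of wild type (-0.59 ± 0.11, adjusted p = 0.00218) and to 0.548-fold of line 1 (-0.83 ± 0.11, adjusted p = 0.000227), both in all 17 alternatives. The most abundant P-type member, FvH4_4g06940, matched to Calcium-transporting ATPase 8 and named after its values were seen, went the other way. It had 234, 235 and 166 FPKM in wild type, 231, 210.4 and 234 in line 1 and 303, 304 and 326 in line 2, all line 2 libraries lying above all others. FvH4_4g06940 rose 1.47-fold in line 2 (0.57 ± 0.12, adjusted p = 0.00615) and was 1.38-fold higher there than in line 1 (adjusted p = 0.0173), the latter lost without line 1 replicate 2 (0.0518). Its call as higher in both lines together (0.34, adjusted p = 0.0336) was lost without wild type replicate 3 (0.17, adjusted p = 0.0643).

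Within the summed calcium ATPase level, FvH4_4g06940 made up 45.4 ± 1.04% in wild type, with 43.0 ± 0.202% in line 1 and 61.4 ± 0.107% in line 2, and FvH4_1g17620 made up 32.7 ± 1.69%, 34.8 ± 0.319% and 20.7 ± 0.0919%. The sum itself was 466 ± 78.7, 524 ± 32.2 and 506 ± 20.3 FPKM. In line 2 the make-up thus leaned to ATPase 8 and away from ATPase 2 while the sum lay within the range of the other groups. Putative calcium-transporting ATPase 13 (FvH4_4g01670), with 41 to 167 fragments per library, had 1.10, 1.36 and 1.10 FPKM in wild type, 0.775, 0.571 and 0.644 in line 1 and 0.366, 0.479 and 0.396 in line 2. The third call as lower in line 2 than in line 1, FvH4_6g24440 (putative calcium-transporting ATPase 11; 7.24 ± 0.767, 8.31 ± 0.858 and 6.11 ± 0.518 FPKM), was named after its values were seen (-0.39, adjusted p = 0.0189). For FvH4_4g01670 the groups did not overlap, and it fell in line 1 (-0.40 ± 0.11, adjusted p = 0.0174, lost without wild type replicate 2 at 0.058) and in line 2 (-0.63 ± 0.11, adjusted p = 0.00152). It reached 1 FPKM only in the wild type libraries, and so passed the filter through the group where it is high. Its fall and lack of overlap are thus in part set by the filter. It was the 1 P-type gene called lower in both lines together and in line 1.

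Heavy metal ATPases had 7 of 8 genes tested, with 2 called higher and 0 lower in both lines together, in line 1 and in line 2. This is 28.6% each time, near the 34.9%, 35.5% and 30.4% called over all tested genes. HMA2 (FvH4_4g07520), which in Arabidopsis exports zinc, had 2.24, 1.88 and 0.998 FPKM in wild type, 3.53, 3.86 and 4.22 in line 1 and 2.31, 2.22 and 2.55 in line 2. Line 1 lay above all others. It rose 2.27-fold in line 1 (0.88 ± 0.16, adjusted p = 0.00215) in each of the 16 alternatives that tested it. It was lower in line 2 than in line 1 by 0.54 ± 0.16 (adjusted p = 0.0298), which was lost without line 1 replicate 2 (0.0665) or 3 (0.093) or any 1 line 2 library (0.0545 to 0.0909). The same call was lost with a pseudocount of 0.1 (0.0595), without the filter (0.0632) and with the replicate block (0.0576), and held in 8 of 16 alternatives. PAA2 (FvH4_2g30930), a copper ATPase of the thylakoid in Arabidopsis, had 2.199, 1.88 and 1.54 FPKM in wild type, 2.97, 2.51 and 2.99 in line 1 and 3.07, 3.04 and 3.21 in line 2.

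PAA2 lay above wild type in all 6 mutant libraries and rose 1.51-fold in line 1 (adjusted p = 0.0143) and 1.66-fold in line 2 (adjusted p = 0.00492). The line 1 call was lost without line 1 replicate 1 (0.0512) or 3 (0.0502). Of genes named after their values were seen, the copper ATPases RAN1 (FvH4_3g12710), which in Arabidopsis supplies copper to ethylene receptors, and HMA4 (FvH4_3g29190) were higher in line 2 than in line 1. RAN1 had means of 11.6 ± 1.19, 9.52 ± 0.811 and 14.03 ± 0.501 FPKM and a log2 difference of 0.52 ± 0.09 (adjusted p = 0.00202). HMA4 had means of 5.87 ± 0.462, 5.58 ± 0.780 and 8.26 ± 0.611 FPKM and a log2 difference of 0.50 ± 0.11 (adjusted p = 0.0058), and it also rose in line 2 against wild type (0.43, adjusted p = 0.0124).

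Phospholipid flippases, which move lipids across membranes, had 4 genes, all tested. Line 1 and both lines together each had 2 called higher and 0 lower, and line 2 had 1 higher and 0 lower, beside 35.5%, 34.9% and 30.4% called over all tested genes. Flippase 1 (FvH4_6g09700) had 23.9, 26.2 and 14.3 FPKM in wild type, 36.2, 32.3 and 37.8 in line 1 and 22.1, 21.0 and 22.8 in line 2. Line 1 lay above all others. Line 2 lay above wild type replicate 3 and below the other wild type libraries. Without wild type replicate 3 and line 1 replicate 2, flippase 1 was called lower in line 2 than in wild type (-0.18, adjusted p = 0.0463). It rose 1.65-fold in line 1 (0.74 ± 0.18, adjusted p = 0.00927) in all 17 alternatives, with log2 changes of 0.48 to 0.90. It was lower in line 2 than in line 1 by 0.66 ± 0.18 (adjusted p = 0.0173), which was lost without line 1 replicate 1 (0.0522) or 3 (0.0593) or line 2 replicate 2 (0.0591). The other calls, named after their values were seen, were those of flippase 3 (FvH4_4g35440; means of 12.7 ± 3.35, 16.5 ± 1.02 and 18.2 ± 1.22 FPKM), higher in both lines together (0.46, adjusted p = 0.0263) and in line 2 (0.52, adjusted p = 0.0296). Its wild type libraries had 14.5, 14.8 and 8.81 FPKM, replicate 3 being the lowest, and its calls without replicate 3 are not given. Flippase 2 (FvH4_5g29681; 11.1 ± 2.86, 15.02 ± 1.01 and 14.3 ± 1.08 FPKM) was called higher in both lines together (0.40, adjusted p = 0.0394) and in line 1 (0.43, adjusted p = 0.0495), and neither call held without wild type replicate 3 (0.104 and 0.0844). The manganese-type gene PDR2 (FvH4_5g30560), with means of 26.2 to 32.3 FPKM over the groups, was not called.

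**Figure D5:**
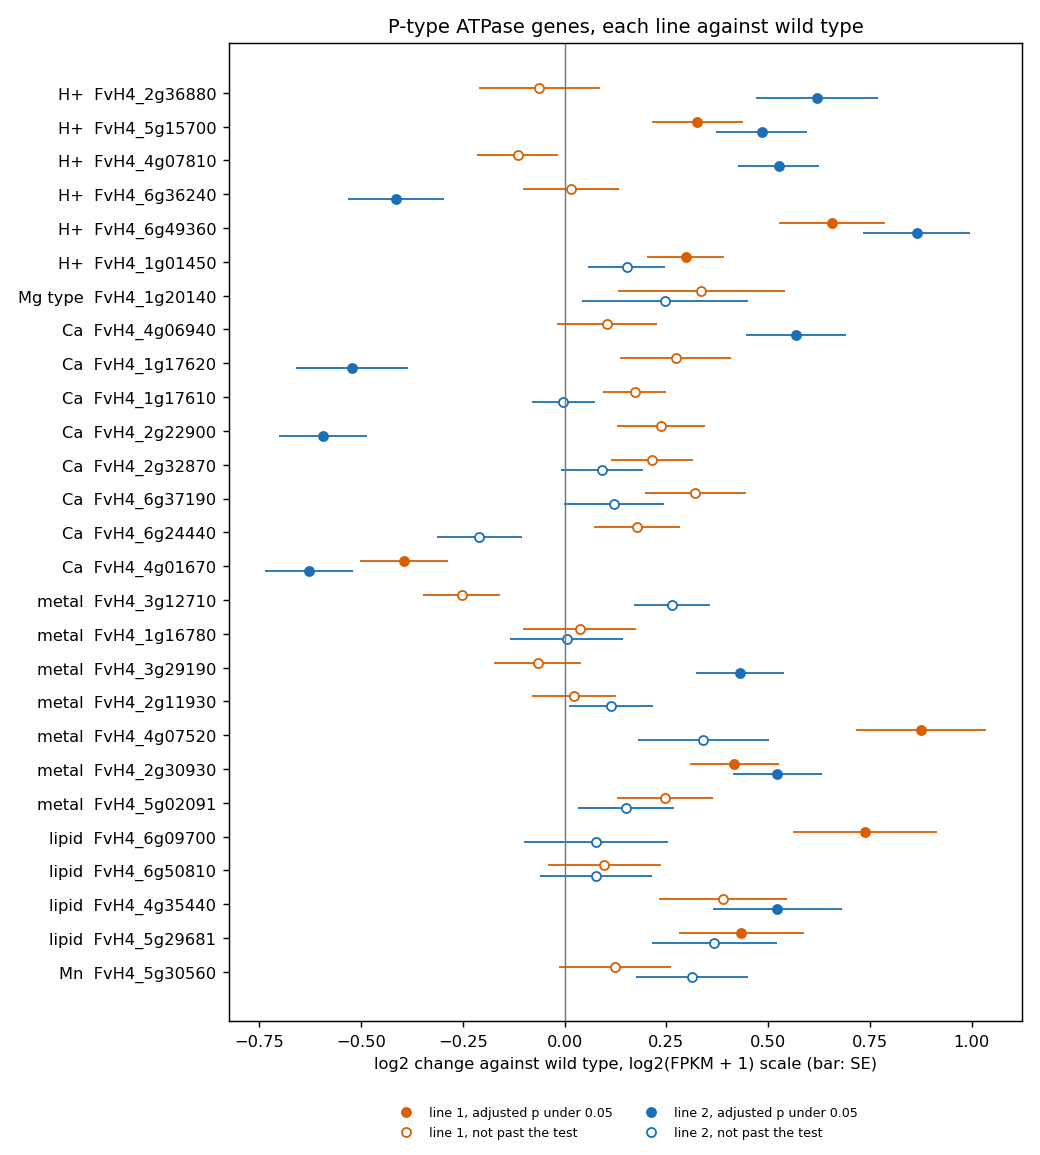
Log2 change of each tested P-type ATPase gene in line 1 and line 2 against wild type, with the standard error as a bar, filled dots for adjusted p under 0.05 and open dots otherwise. In line 2, Plasma membrane ATPase 4 (0.62 and 0.53) and calcium ATPase 8 (0.57) lie on the positive side, and calcium ATPases 2, 12 and 13 (-0.52, -0.59 and -0.63) on the negative side. Calcium ATPase 13 (FvH4_4g01670) passed the filter through its wild type libraries alone.

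Other genes of the proton gradient were taken from 6 lists of description patterns, with the calls given for both lines together, where 34.9% of all tested genes were called. Vacuolar anion carriers had 2 called higher and 1 lower of 10. The tonoplast dicarboxylate transporter FvH4_3g00891, which carries malate, fell from 239 ± 7.07 FPKM to 60.3 ± 5.17 (line 1) and 65.5 ± 2.11 (line 2), by the test of both lines (-1.91, adjusted p = 1.37e-08). The summed level of this list was 349 to 363 FPKM in wild type libraries, 173 to 187 in line 1 and 189 to 198 in line 2, with no overlap. FvH4_3g00891 made up most of the wild type sum, and the median log2 change over the 10 genes was 0.12. Aluminum-activated malate transporter 9 (FvH4_5g12330) rose from 12.3 ± 0.763 to 14.85 ± 0.128 and 16.4 ± 0.567 FPKM (adjusted p = 0.00331). Transporter 2 of that family (FvH4_6g51860), with means of 0.668, 2.52 and 0.359 FPKM, was also called higher (adjusted p = 0.0104). Its mean in line 2 lay below that in wild type. FvH4_6g51860 passed the filter through line 1, where it is high, so this call is in part set by the filter. Exchangers, a pattern that also caught potassium efflux antiporters, had 5 higher and 1 lower of 15, and vacuolar cation/proton exchanger 2 (FvH4_6g37510) was the 1 that fell, from 7.34 ± 0.0375 to 5.94 ± 0.280 and 6.34 ± 0.0149 FPKM (adjusted p = 0.0221). Those called higher included FvH4_1g27662 (0.44, adjusted p = 0.00814) and FvH4_7g13660 (0.40, 0.0102), both matched to a chloroplastic potassium efflux antiporter. Sodium/hydrogen exchanger 6 (FvH4_3g00030; 0.30, 0.0155) was also among them.

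Sugar carriers had 1 higher and 2 lower of 8, among them ERD6-like 7 (FvH4_2g24290), which fell from 29.4 ± 2.52 to 9.77 ± 1.00 and 19.3 ± 1.38 FPKM (adjusted p = 7.79e-06). Regulators of plasma membrane pumps had 1 higher and 5 lower of 16. SAUR50 (FvH4_2g10770), of a family that in Arabidopsis keeps plasma membrane pumps active, fell from 67.9 ± 12.4 to 50.4 ± 0.366 and 26.2 ± 1.63 FPKM (-0.87, adjusted p = 7.59e-05). SAUR36 (FvH4_7g32600), of the same family and near the filter, rose from 0.622 ± 0.269 to 1.02 ± 0.145 and 1.69 ± 0.384 FPKM (0.53, adjusted p = 0.0103). It passed the filter through the mutant libraries, where it is high, so its rise is in part set by the filter. Proton pump-interactor 1 (FvH4_5g26490) fell from 75.5 ± 17.9 to 59.9 ± 7.20 and 44.2 ± 2.51 FPKM (-0.52, adjusted p = 0.0153). The 14-3-3 gene kappa (FvH4_1g19920), of proteins that bind and activate the pumps, fell from 111 ± 16.1 to 82.5 ± 3.07 and 98.0 ± 1.28 FPKM (-0.29 on the log2 scale, adjusted p = 0.0174).

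Soluble inorganic pyrophosphatases, which consume pyrophosphate, had 1 higher and 1 lower of 4. The 1 called lower, FvH4_2g10920 (26.4 ± 3.83, 18.5 ± 1.61 and 24.8 ± 0.701 FPKM, adjusted p = 0.0315), is matched to a chloroplastic enzyme. FvH4_7g17880 was the 1 called higher (5.75 ± 0.698, 8.51 ± 0.947 and 7.63 ± 0.556 FPKM, adjusted p = 0.00618). The most abundant, FvH4_1g12970 (174 ± 23.3, 181 ± 2.64 and 190.8 ± 3.49 FPKM), was not called (adjusted p = 0.331). Genes for assembly of the vacuolar pump had 0 called of 2, with means of 24.1 ± 5.42, 19.1 ± 0.947 and 21.7 ± 0.773 FPKM for FvH4_4g01060 and of 6.26 ± 0.994, 5.997 ± 0.786 and 4.89 ± 0.501 FPKM for FvH4_3g12930.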

How the data were processed

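Poly(A) RNA of fruit was sequenced in 9 libraries. The authors' deposited table gives FPKM for 34777 genes, scaled by them to gene length and library size. Per the submitters' processing notes the tools included featureCounts 2.0.6, StringTie 2.2.3, HISAT2 2.2.1 and fastp, with no role or order stated. Genome build and use of strand are not given in the sources used here. Positions are as listed. Multiplied by gene length, the values were whole numbers of a step fixed within each library (100% within 0.02), which gave fragment numbers. A level that 0 fragments allows is set at 3 fragments in the shallowest library and covers counting error only. Replicates of a group differed by more than sampling noise, with a chi-square per gene of 4.52 to 68.76 on average.

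limma 3.58.1 in R 4.3.3 (limma-trend) fitted 3 group means to log2(FPKM + 1) of the 15890 genes that reached 1 FPKM in 3 or more of the 9 libraries. Contrasts were the mean of both lines, each line, and line 2 against line 1. A call is an adjusted p below 0.05 (Benjamini-Hochberg, all genes of the fit, two-sided), and "higher" and "lower" mean called. Folds are ratios of mean FPKM, log2 changes use FPKM + 1 and are smaller for low genes, ± is SD unless SE is given or it follows a log2 change. The code was tested on simulated data.

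Named with all libraries were vacuolar members called in any contrast, the top copy of each subunit, tested plasma membrane pumps, and other P-type members called in both lines or between the lines at 1.5-fold or more of mean FPKM. Members and lists were chosen with earlier results of these data known. Contrasts against wild type share its libraries. The 17 alternatives were a pseudocount of 0.1, 2 other filters, 2 scalings, a replicate block, voom on fragments, and leaving out each library or wild type replicate 3 with line 1 replicate 2. No sequences or genome were used.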

Additional observations from a re-analysis of the deposited data

Results flagged for a closer look

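Between the lines, 17 members differed by the test of line 2 against line 1, that is, their effects in the lines, measured against the same wild type, differed. They were 6 of 22 tested vacuolar genes (27.3%) and 11 of 27 tested P-type genes (40.7%), where 27.6% of all tested genes were called. Of the vacuolar genes, the V-PPase genes FvH4_6g07370 (0.35), FvH4_1g02190 (0.58) and FvH4_6g29320 (0.57) and subunit F FvH4_6g02960 (0.43) were higher in line 2 on the log2 scale. Subunit C FvH4_6g54180 (-0.21) and subunit D FvH4_6g37711 (-0.33) were lower. Of the P-type genes, Plasma membrane ATPase 4 genes FvH4_2g36880 (0.68) and FvH4_4g07810 (0.64), calcium ATPase 8 FvH4_4g06940 (0.46), RAN1 FvH4_3g12710 (0.52) and HMA4 FvH4_3g29190 (0.50) were higher. Calcium ATPases FvH4_1g17620 (-0.80), FvH4_2g22900 (-0.83) and FvH4_6g24440 (-0.39), flippase FvH4_6g09700 (-0.66), ATPase 10 FvH4_6g36240 (-0.43) and HMA2 FvH4_4g07520 (-0.54) were lower.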

How the results depend on the processing

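Over 2088 values of named genes across the 17 alternatives, 1931 kept their call or lack of one, 112 lost a call and 44 gained one. A further 1 turned, that is, was called with the other sign. Changes of sign among values without a call were not counted, such as FvH4_6g37000 in line 1 (-0.09 to 0.069). The 1 that turned was flippase FvH4_6g09700 in line 2 against wild type, at -0.18 (adjusted p = 0.0463) without wild type replicate 3 and line 1 replicate 2, from 0.08 and no call, and it ranged up to 0.24 when 1 library was left out. Without the filter, 5 vacuolar genes were called in both lines in place of 8. With a mean of at least 5 FPKM, which left 21 P-type genes, 4 were called in both lines and 3 in line 1, in place of 8 each. With voom, 14 P-type genes were called in line 1. With the replicate block, 4 vacuolar genes were called in both lines and 2 in line 2 (in place of 4), and 5 P-type genes in line 1. It also took the adjusted p of FvH4_2g39101 to 0.0509 in both lines and 0.0584 in line 1, and that of FvH4_2g29800 in line 2 to 0.0507. The replicate numbers did not pair the libraries (correlation of same-numbered deviations -0.26 to 0.16, and not every library correlated best with its own number).

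Leaving out 1 library each, or wild type replicate 3 with line 1 replicate 2, gave 5 to 9 vacuolar calls in both lines (5 without wild type replicate 3, line 1 replicate 1 or line 2 replicate 3), 4 to 9 in line 1 in place of 9 (4 without line 1 replicate 1), and 2 to 6 in line 2 (2 without line 2 replicate 3). P-type calls ranged from 5 to 12 in both lines (5 without line 1 replicate 3 or line 2 replicate 3), from 4 to 10 in line 1 (4 without line 1 replicate 1 or 3) and from 7 to 13 between the lines in place of 11 (7 without line 1 replicate 3). Calls over all tested genes moved too, from 4410 to 5843 in both lines in place of 5545 and from 4177 to 5964 in line 1 in place of 5645. They ranged from 3344 to 5666 in line 2 in place of 4832 and from 3289 to 5962 between the lines in place of 4390. Where 2 libraries remain in a group, fewer samples enter the fit. For members outside the named genes, only wild type replicate 3 and line 1 replicate 2 were left out singly. The cause of the other moves was not tested. Low genes rest on few fragments, as few as 22 in a library for FvH4_4g13651. Bias by GC content was not tested.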
